A study of Rattus norvegicus with 3 samples.

Results

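The comparison described here sets maturation-stage ameloblasts against secretory-stage ameloblasts of the rat incisor, across all 16516 genes of the authors' gene table and all 9949 transcripts, of 4051 genes, in their transcript table for the same contrast. Every row of both tables was kept. The animals were 5 Wistar Hannover rats with no stated treatment or genetic change, and age and sex are not stated. Epithelial cell populations were dissected from the enamel organ, total RNA with an integrity number of at least 7 was made into libraries, and about 25000000 single-end reads of 75 bases were produced per library. Another population, the cervical loop, lost the library of 1 rat to low RNA integrity and was not compared here. What is in hand is 1 deposited mean per gene and stage, so no spread between rats can be shown. The error enters only through the p-values of the authors' deposited table, which were adjusted here by the Benjamini-Hochberg method over all rows and are called the authors' adjusted p. The words "rose", "fell", "higher" and "lower" in maturation are used only of genes with an adjusted p of at most 0.05. The deposited totals were fitted over all genes by least squares on the stage means. The fitted multiples were 3.99 for the secretory, 5.01 for the maturation and 3.99 for the cervical loop mean. Rounded, the fit gives 4 secretory and 5 maturation libraries. With 5 rats, the secretory stage is by this inference short of a library too, and no reason for it can be given here. Values are the authors' means in the unit of their table, which the sources used here do not give, so a mean is compared between stages. Where genes were picked or plotted by the size of their means, that is a way of choosing genes in this unit and not a comparison of amounts between genes. A summed mean of a gene list is likewise compared between stages only, and the unknown unit sets how much each member counts in it.

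Ameloblasts build enamel in steps. As tall secretory cells they pour out amelogenin, enamelin and ameloblastin through a polarised endoplasmic reticulum and Golgi and lay down a soft protein matrix in which thin mineral ribbons grow. At the maturation stage they shorten, alternate between ruffle-ended and smooth-ended forms, digest the matrix with kallikrein 4 (Klk4), take the fragments back in, pump calcium and phosphate, neutralise the acid that crystal growth releases and, in rodents, load the enamel surface with iron.

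The dissected populations carried the markers of their labels. Enam, an enamel matrix protein, fell from 13468 to 79.99 (168-fold), and Amelx, amelogenin, fell from 37121 to 217 (171-fold). Odam, the odontogenic ameloblast-associated protein of the mature ameloblast's basal lamina, rose from 127 to 3159 (24.9-fold). Slc24a4, the potassium-dependent sodium-calcium exchanger of maturation ameloblasts, rose from 54.9 to 684 (12.5-fold), and Klk4 rose from 19.3 to 142 (7.37-fold). These are dissected tissues and not sorted cells. The stage sums over all genes were 612568 and 484343, but the median log2 ratio of maturation to secretory over all genes was 0.01. A scale without the 12 genes of the highest means raised every log2 ratio by 0.01. The authors' normalization is not given, and one that matches the stages on a median or percentile would fix such values in advance. They therefore cannot show how far the fall of the matrix genes moved the scale. In such tissue, fewer cells of a type and less RNA per cell cannot be told apart, for any gene below.

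Of all genes, 7089 (42.9%) passed the test, 3598 (21.8%) higher and 3491 (21.1%) lower in maturation. With a ratio of at least 2-fold as well, 1424 genes (8.62%) were higher and 1122 (6.79%) lower. The share called differed with the size of the mean: 19.8% of genes whose higher mean was below 1 passed, against 49% of those between 10 and 30 and 74% of those between 100 and 300. These bins also differed in the median absolute log2 ratio, at 0.523, 0.308 and 0.663, so the part of the mean itself was not tested. The shares 21.8% higher and 21.1% lower are the background against which each gene group below is read, beside the median log2 ratio of 0.01. This background is not matched for the size of the mean. Of 2804 genes with a higher mean between 30 and 100, 778 were higher and 941 lower. Between 100 and 300 it was 241 and 315 of 751. A group of genes with large means can thus exceed the background, in falls above all, without differing from genes of like means.

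**Figure D1:**
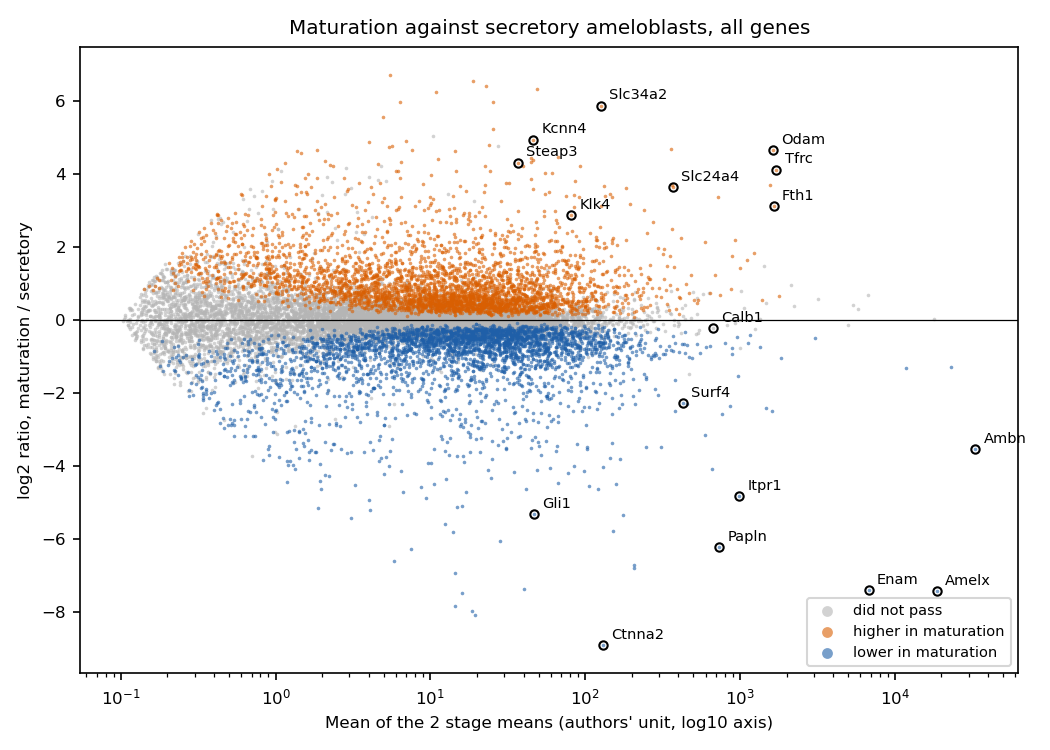
Ratio of the authors' stage means against the size of the means for every gene with both means above 0.1. The x axis is the mean of the 2 stage means on a log10 axis and the y axis the log2 ratio of maturation to secretory; orange points passed the test as higher, blue points as lower and grey points did not pass, and the named genes lie from Ctnna2 at -8.89 to Slc34a2 at 5.87.

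The largest ratios among genes with a higher mean of at least 50 included transport, adhesion and sulfation genes beside the matrix genes. On the rising side, beside an unnamed locus (AABR07041778.1), came Slc34a2, a sodium-phosphate cotransporter, which rose from 4.26 to 248 (58.3-fold, the authors' adjusted p = 0.000544), Kcnn4, the intermediate-conductance calcium-activated potassium channel, which rose from 2.93 to 89.6 (30.6-fold), and Gpr155, which rose from 27.1 to 694 (25.7-fold). Serpinb1a, an inhibitor of neutrophil-type proteases, rose from 5.85 to 128 (21.9-fold). Gpr176, an orphan receptor, rose from 3.95 to 85.2 (21.6-fold), and Slc1a1, the glutamate and cysteine carrier, rose from 4.21 to 87.9 (20.9-fold). Ggt1, which opens glutathione at the cell surface, rose from 4.25 to 84.7 (19.9-fold), and Steap3, a ferrireductase, rose from 3.54 to 70.02 (19.8-fold). Nrip3 rose from 4.03 to 74.9 (18.6-fold) and Calml3, a calmodulin-like protein of epithelia, rose from 9.52 to 176 (18.4-fold). On the falling side the lowest ratio belonged to Ctnna2, the neural alpha-catenin, which fell from 259 to 0.546 (474-fold, the authors' adjusted p = 0.000621). Etnppl, an ethanolamine-phosphate lyase, fell from 79.6 to 0.482 (165-fold). The sulfotransferases Chst1 and Gal3st4 fell from 407 to 3.67 (111-fold) and from 297 to 5.48 (54.2-fold), respectively. Cd24, a small glycosylated surface protein, fell from 410.1 to 3.94 (104-fold), Papln, a secreted protease-inhibitor-like matrix protein, fell from 1451 to 19.7 (73.7-fold), and Aifm3 fell from 55.8 to 0.839 (66.5-fold). Acp4, an acid phosphatase whose loss causes thin enamel, fell from 343 to 8.50 (40.3-fold).

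Picked by the difference of the means in the authors' unit, the 10 largest rises included iron genes. Tfrc, the transferrin receptor, rose from 188 to 3249, LOC100360087, a ferritin light chain gene by its RefSeq synonym, from 225 to 2901, and Fth1, ferritin heavy chain, from 342 to 2955. AABR07054189.1, a locus known only by its contig, rose from 129 to 1319.7. Odam, Amtn (amelotin), Krt14 (a basal keratin), Col12a1 (a fibril-associated collagen, from 406 to 1368) and Trpm7 (a magnesium-permeant channel kinase) were also among these 10. The 10 largest falls by the same measure included Amelx, Enam and Ambn, ameloblastin, which fell from 61048 to 5251. RNAs of non-coding type stood beside them: RF00017, the family name of signal recognition particle RNA, fell from 32750.00 to 13486, Rn7sl1, a gene of that same RNA, from 16952 to 6863, and Rmrp, the RNA of RNase MRP, from 2471 to 1215. These RNAs have many near-identical copies, so their values are uncertain. Itpr1, a calcium release channel, Papln and the unnamed AABR07031193.1 (from 2480.4 to 466) were also among these falls.

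The genes of the secreted calcium-binding phosphoproteins lie close together, and neighbours there moved in opposite directions. In RefSeq's order of protein-coding genes on GRCr8, Enam, Ambn and Amtn are direct neighbours, and Csn3 (kappa-casein) and Odam lie further along on Amtn's side. Enam and Ambn fell, while the next gene, Amtn, rose from 332 to 1514 (4.56-fold), Csn3 rose from 4.73 to 34.3 (7.24-fold) and Odam rose. Oprpn, the gene after Amtn, had means of 0.281 and 0.0532 and did not pass (the authors' adjusted p = 0.0505). On the far side of Enam, Jchain had 0.443 and 0.438 and did not pass (the authors' adjusted p = 0.864). Oprpn and Jchain are named for their position. Over the whole phosphoprotein list 5 were higher and 4 lower, of 13 measured (median log2 ratio 0.66). Sparc and Sparcl1, matrix proteins of the ancestral branch of the family, rose from 1128 to 1646 and from 48.5 to 196. Dspp, the dentin sialophosphoprotein, fell from 22.2 to 0.0701, and the bone members Spp1, Ibsp, Dmp1 and Mepe did not pass.

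In a list of secreted-pathway kinases and other genes of inherited enamel defects, 2 were higher and 9 lower, of 12 measured (median log2 ratio -1.62). This list does not hold every gene tied to enamel. Amelx and Enam, which fell, and Klk4, Slc24a4, Cnnm4 and Orai1, which rose, are counted in other lists. Fam20c, the Golgi kinase that phosphorylates the matrix proteins, fell from 187 to 48.1 (3.88-fold), and its pseudokinase partner Fam20a fell from 183 to 47.7 (3.83-fold). Relt, a receptor of the tumour necrosis factor family, fell from 92.1 to 5.40 (17.1-fold). Sp6 (epiprofin), a transcription factor of dental epithelium, fell from 286 to 58.4 (4.89-fold), and the integrin chain Itgb6 fell from 212 to 85.7 (2.47-fold). Tuft1 and Fam83h went the other way, from 17.4 to 53.5 and from 28.5 to 51.9. Dlx3 had 151 and 108 and did not pass (the authors' adjusted p = 0.106).

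Genes of the route from the endoplasmic reticulum to the Golgi fell at each of its steps. Of the COPII coat and exit genes 1 was higher and 22 lower, of 28 measured (median log2 ratio -0.56). Surf4, a cargo receptor, fell from 708 to 148 (4.80-fold, the authors' adjusted p = 0.000615), and Kdelr3, a retrieval receptor, fell from 91.96 to 21.8 (4.22-fold). Sec16b, an exit-site scaffold, fell from 9.26 to 4.73 (1.96-fold), and the single riser was Sec24a, from 26.4 to 35.1. Of the COPI coat and Golgi genes 0 were higher and 24 lower, of 35 measured (median log2 ratio -0.37). The SNARE Sec22b fell from 118 to 41.3 (2.86-fold), the tether Golgb1 (giantin) fell from 222 to 94.7 (2.34-fold), Golga3 fell from 38.1 to 15.1 (2.52-fold) and the coat subunit Copa fell from 247 to 145 (1.71-fold). Of the translocon, signal peptidase and oligosaccharyltransferase genes 1 was higher and 17 lower, of 28 measured (median log2 ratio -0.47). The channel subunits Sec61a1 and Sec61b fell from 261 to 115 (2.26-fold) and from 42.3 to 17.4 (2.44-fold), and Ssr4 fell from 69.6 to 21.1 (3.30-fold). Srp14, a protein of the signal recognition particle, rose from 16.6 to 22.5 while the particle's RNA fell.

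Folding enzymes were split rather than uniformly lower: 9 were higher and 15 lower, of 35 measured (median log2 ratio -0.12). The disulfide isomerases Pdia6 and Pdia5 fell from 268 to 113 (2.38-fold) and from 9.19 to 3.64 (2.52-fold), and Erp29 fell from 78.4 to 33.2 (2.36-fold). Ero1b, an oxidase that feeds them, rose from 6.75 to 13.5, the co-chaperone Dnajc3 from 33.8 to 59.6 and the exchange factor Sil1 from 7.88 to 13.1. Calr, calreticulin, had 377 and 473 and did not pass (the authors' adjusted p = 0.0503). Among regulators of the unfolded protein response 9 were higher and 11 lower, of 27 measured (median log2 ratio -0.04). Creb3l2, a membrane-bound factor for secretory genes, fell from 90.1 to 21.4 (4.20-fold, the authors' adjusted p = 0.000300), Xbp1 fell from 78.8 to 31.9 (2.47-fold) and its activating sensor Ern1 fell from 87.2 to 38.4 (2.27-fold). Herpud1, Ppp1r15a and Edem2 rose, each by less than 1.5-fold.

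A pair of motifs bound by factors of that response were looked for in the 250 bases before the gene start in RefSeq's GRCr8 promoter windows, on both strands. TGACGTG, the core of the unfolded protein response element, was in 1.54% of all 33469 windows and in 2.13% of the 11020 measured genes with a window. Over all genes with a window it was in 2.02% of higher, 2.68% of lower and 1.96% of not passed genes. It occurred in 12 of the 135 genes with a window among the endoplasmic reticulum, COPII and COPI groups above. Of these genes with the motif 10 were lower, 0 higher and 2 not passed, and of those without it 70, 17 and 36. The longer ER stress element is a CCAAT box and CCACG with 9 bases between them. It was in 0.0657% of windows and in 0.136% of measured genes. By direction it was in 0.233% of higher, 0.0825% of lower and 0.116% of not passed genes. It was in 8 of the same 135 genes. Of these 8 genes, 2 were lower (Hsp90b1 and Xbp1), 3 higher (Canx, Ero1b and Dnajc3) and 3 not passed (Hspa5, Calr and Creld2). The following windows, 5′ to 3′ on the gene's own strand with the motif (or its reverse complement) in capitals, show TGACGTG in folding, COPII, retrieval and COPI genes and the ER stress element in Hspa5 and Xbp1. The genes shown were picked from those with a motif after their values were seen, and no translocon gene is among them.
Erp29, chr12:40750280-40750326, plus strand: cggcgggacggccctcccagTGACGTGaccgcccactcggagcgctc
Hyou1, chr8:53602671-53602717, plus strand: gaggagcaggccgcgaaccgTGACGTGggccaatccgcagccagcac
Sec23a, chr6:82440969-82441015, minus strand: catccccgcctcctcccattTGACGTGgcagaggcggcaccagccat
Kdelr3, chr7:112959512-112959558, plus strand: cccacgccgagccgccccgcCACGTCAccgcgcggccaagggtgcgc
Gbf1, chr1:254959998-254960044, plus strand: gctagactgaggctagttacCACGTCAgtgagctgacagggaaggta
Hspa5, chr3:38452953-38453011, plus strand: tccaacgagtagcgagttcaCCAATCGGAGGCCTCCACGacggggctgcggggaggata
Xbp1, chr14:84604538-84604596, plus strand: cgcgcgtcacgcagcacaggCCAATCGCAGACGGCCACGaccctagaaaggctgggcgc
Erp29 (folding), Hyou1 (an endoplasmic reticulum chaperone), Sec23a (COPII coat), Kdelr3 (retrieval) and Gbf1 (an Arf exchange factor for COPI) were all lower, and so were Dnajc10, Sec16a, Arf1, Arf4 and Golga1, which also hold TGACGTG. Hyou1 fell from 116 to 90.7, Sec23a from 50.2 to 31.8 and Gbf1 from 132 to 76.8. Hspa5 (BiP), the main target of the response, holds both motifs and had 288 and 313 (the authors' adjusted p = 0.241, not passed), and Srp19, a signal recognition particle protein with TGACGTG, had 9.71 and 7.95 and did not pass.

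Ribosomal protein genes fell together. Of 61 cytosolic ribosomal protein genes, taken by their symbols, 56 were lower and 0 higher, with a median log2 ratio of -0.80. Their summed mean was 10407 in secretory and 5797 in maturation ameloblasts. Rps12 fell from 43.98 to 16.3 (2.70-fold), Rps16 fell from 284 to 112 (2.54-fold) and Rps28 fell from 29.2 to 12.3 (2.37-fold). Many ribosomal protein genes have processed pseudogenes that share their reads, so single values are uncertain. Of the translation factors 3 were higher and 11 lower, of 34 measured (median log2 ratio -0.13): the elongation factors Eef1g and Eef2 fell from 233 to 100.3 (2.32-fold) and from 1125 to 666 (1.69-fold). Among cytosolic aminoacyl-tRNA synthetases 4 were higher and 5 lower, of 20 measured (median log2 ratio -0.07), a split close to even.

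**Figure D2:**
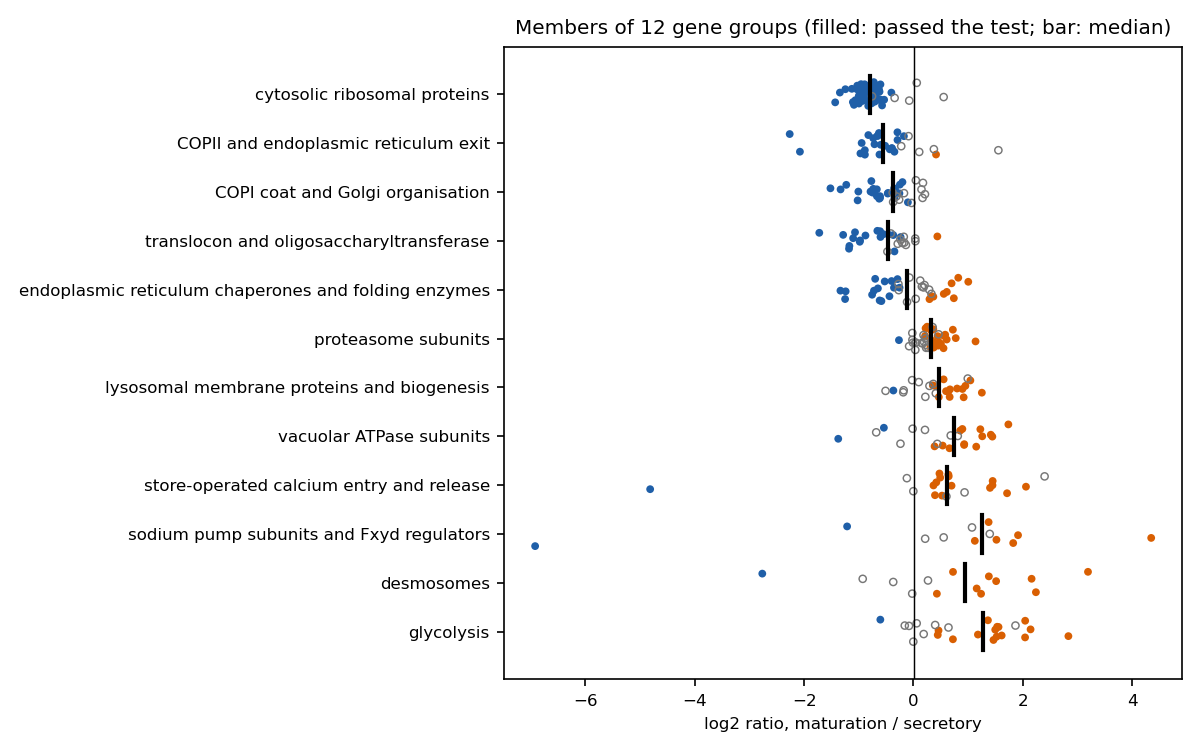
Log2 ratio of maturation to secretory for every member of 12 gene groups that has both means above 0.1. Each point is a gene (filled where it passed the test, open where it did not), the short bar is the group's median and the vertical line is the median of all genes; ribosomal proteins, COPII, COPI and translocon genes lie mostly left of the line, and glycolysis, desmosome, sodium pump and vacuolar ATPase genes mostly right.

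Calcium handling genes changed in both directions, and members of the same family moved apart. Of the store-operated entry and release genes 14 were higher and 1 lower, of 20 measured (median log2 ratio 0.62). The sensors Stim1 and Stim2 rose from 88.1 to 232 (2.64-fold) and from 62.3 to 259 (4.16-fold), the pore subunit Orai2 rose from 42.1 to 115 (2.72-fold) and the reticulum pump Atp2a2 rose from 565 to 915 (1.62-fold). Orai1, the pore subunit tied to inherited enamel defects, rose from 4.20 to 5.90. The release channels moved apart: Itpr1 fell from 1909 to 67.9 (28.1-fold, the authors' adjusted p = 0.000327), while Itpr2 and Itpr3 rose from 26.1 to 71.2 (2.73-fold) and from 240.1 to 375 (1.56-fold). With the fall of Itpr1, the summed mean of this list was 3095 in secretory and 2250.3 in maturation although 14 members rose. At the plasma membrane 3 were higher and 5 lower, of 12 measured (median log2 ratio -0.06). The pump Atp2b1 fell from 648 to 116 (5.58-fold, the authors' adjusted p = 0.00310) and Atp2b4 fell from 259 to 142 (1.82-fold). The exchangers Slc8a3 and Slc24a3 fell from 28.8 to 4.41 (6.54-fold) and from 19.6 to 5.19 (3.78-fold), against the rise of Slc24a4. Among calcium-binding and buffering proteins 6 were higher and 4 lower, of 20 measured (median log2 ratio 0.11). Rcn2, Rcn3, Calu and Nucb2 fell, Rcn2 from 202 to 37.5, whereas S100g (calbindin-D9k) rose from 1.11 to 27.6 (24.9-fold). Calb1, calbindin-D28k, was high in both stages at 723 and 622 and did not pass (the authors' adjusted p = 0.806). Of annexins and S100 proteins 11 were higher and 2 lower, of 21 measured (median log2 ratio 0.75), with Anxa8 from 23.3 to 246 (10.5-fold) and S100a6 from 16.2 to 166 (10.3-fold).

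Several transporters for pH control rose, while the lists as wholes were mixed. Of the carbonic anhydrases 5 were higher and 1 lower, of 11 measured (median log2 ratio 0.29). Car6, the secreted form, rose from 12.3 to 96.7 (7.85-fold), Car2, the cytosolic form, rose from 52.9 to 252 (4.77-fold) and Car3 rose from 20.3 to 74.8 (3.68-fold). Car12 had 58.1 and 34.4 and did not pass (the authors' adjusted p = 0.172). Of the bicarbonate and chloride exchangers 6 were higher and 3 lower, of 17 measured (median log2 ratio 0.16). Slc26a1 rose from 10.4 to 55.5 (5.32-fold), Slc26a7 rose from 10.4 to 51.8 (4.96-fold), Slc26a6 rose from 6.29 to 17.5 (2.78-fold) and the sodium-bicarbonate cotransporter Slc4a4 rose from 86.5 to 162 (1.87-fold). Slc4a2, the basolateral anion exchanger of ameloblasts, had 109.8 and 136 and did not pass (the authors' adjusted p = 0.275). Slc26a2, a sulfate carrier, fell from 61.8 to 24.6. Of the proton exchangers, chloride channels and proton sensors 9 were higher and 6 lower, of 31 measured (median log2 ratio 0.12). Cftr, the chloride channel mutated in cystic fibrosis, rose from 19.9 to 116 (5.81-fold, the authors' adjusted p = 0.00338), the chloride channel Best1 rose from 9.53 to 107 (11.3-fold) and the organellar exchanger Slc9a7 rose from 1.27 to 16.8 (13.2-fold). Gpr4, a proton-sensing receptor, fell from 27.7 to 8.04 (3.44-fold) and the cotransporter Slc12a4 fell from 371 to 120.3 (3.08-fold).

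Phosphate, magnesium, sodium and potassium genes moved in both directions within their families. Against the rise of Slc34a2, Slc20a1, a sodium-phosphate carrier of another family, fell from 107 to 57.3 (1.86-fold), and Slc20a2 had 308 and 266 (the authors' adjusted p = 0.445, not passed). The phosphate exporter Xpr1 rose from 81.4 to 423 (5.20-fold, the authors' adjusted p = 0.000191). Enpp1, which makes the mineral inhibitor pyrophosphate, rose from 36.3 to 213 (5.86-fold), and Alpl, which hydrolyses it, rose from 324 to 491 (1.52-fold). Enpp2 (autotaxin), a lipid enzyme of the same family, fell from 258 to 77.95 (3.31-fold). Of the magnesium list 7 were higher and 4 lower, of 14 measured (median log2 ratio 0.36): Trpm7 rose from 549 to 1464 (2.67-fold), Cnnm2 rose from 12.9 to 63.7 (4.92-fold) and Cnnm4, whose loss causes enamel and retinal defects, rose from 36.1 to 91.96 (2.55-fold). Of the sodium pump list 6 were higher and 2 lower, of 13 measured (median log2 ratio 1.25). The beta subunits Atp1b3 and Atp1b1 rose from 136 to 389 (2.86-fold) and from 70.5 to 153 (2.18-fold), while the regulators Fxyd4 and Fxyd3 fell from 28.6 to 0.237 (121-fold) and from 55.1 to 23.8 (2.32-fold). Of the potassium channels 15 were higher and 6 lower, of 42 measured (median log2 ratio 0.12). Beside Kcnn4, Kcnh2 rose from 1.65 to 14.3 (8.68-fold) and Kcnd3 rose from 11.05 to 30.3 (2.74-fold), whereas the voltage-gated Kcna3 fell from 44.4 to 2.60 (17.1-fold).

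**Figure D3:**
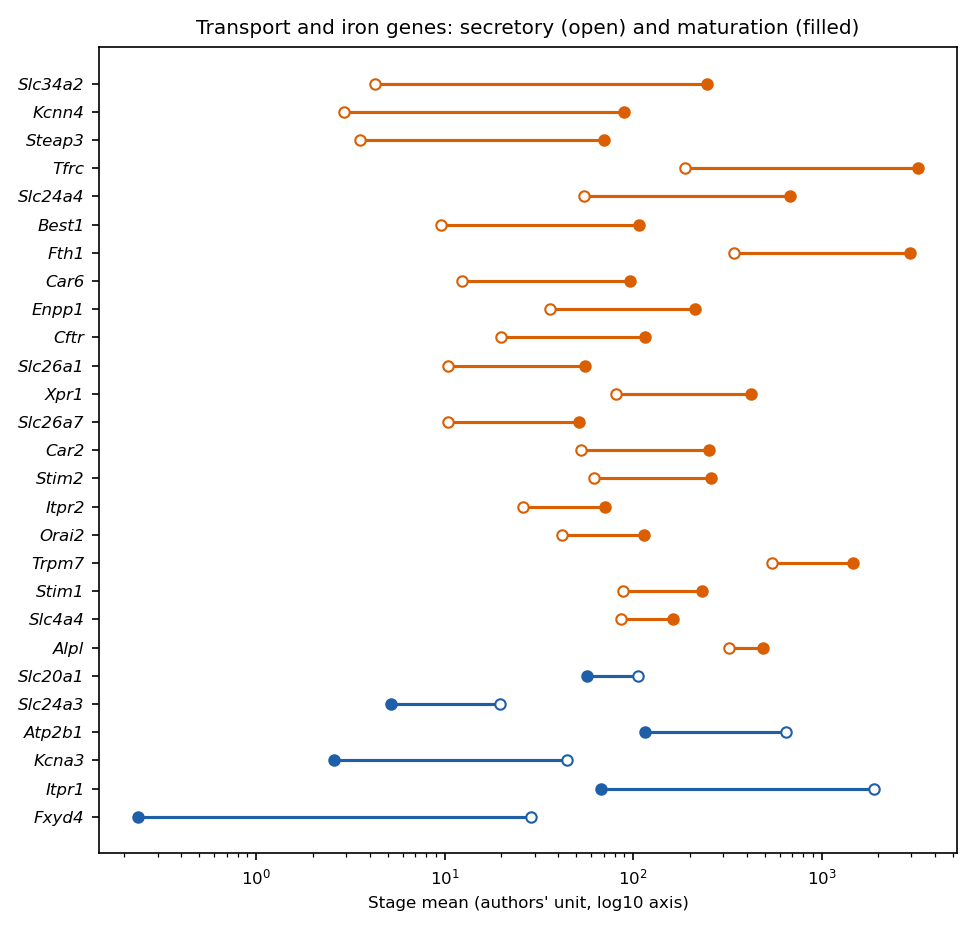
The authors' secretory mean (open circle) and maturation mean (filled circle) of 27 transport and iron genes named in the text, on a log10 axis; every gene shown passed the test. Lines join the 2 means of a gene and show rises in orange and falls in blue, with Slc34a2 the widest rise and Fxyd4 the widest fall.

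Among iron genes the main uptake and storage members rose. Over the list 10 were higher and 3 lower, of 28 measured (median log2 ratio 0.31). The receptor Tfrc rose from 188 to 3249 (17.3-fold, the authors' adjusted p = 0.000321), the endosomal reductase Steap3 rose from 3.54 to 70.02 (19.8-fold, adjusted p = 0.000426) and the endosomal iron carrier Slc11a2 rose from 68.7 to 137 (1.998-fold). Both ferritin chains rose: Fth1 rose from 342 to 2955 (8.64-fold, the authors' adjusted p = 0.000528) and Ftl1 rose from 51.9 to 675 (12.998-fold, adjusted p = 0.000141). LOC100360087 and Ftl1 are near copies, so reads may be divided between them. Steap1 and the zinc and iron carrier Slc39a14 fell, to 26.3 and 172. The exporter Slc40a1 had 0.774 and 2.75 (the authors' adjusted p = 0.292), and Tf, transferrin itself, 28.8 and 32.7 (adjusted p = 0.176), both not passed. These, and Hmox1 below, are named to complete the route and not for their ratios. Hmox1, heme oxygenase, rose from 14.2 to 42.5 and is also a macrophage gene. Zinc genes were split, 8 higher and 10 lower of 24: Slc39a2 rose from 1.01 to 21.4 (21.1-fold) and the metallothionein Mt1 rose from 5.64 to 31.9 (5.66-fold), while Slc39a11 fell from 18.9 to 4.20 (4.51-fold).

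Uptake and degradation genes rose in part. Among endocytic receptors 13 were higher and 6 lower, of 27 measured (median log2 ratio 0.36): beside Tfrc, Lrp3 rose from 1.996 to 17.8 (8.93-fold) and Sorcs1 rose from 0.265 to 7.78 (29.3-fold), and the sorting receptor Sort1 fell from 142 to 44.2 (3.21-fold). Of the clathrin coat and adaptor genes 18 were higher and 9 lower, of 43 measured (median log2 ratio 0.17). The AP-2 subunit Ap2a2 rose from 56.9 to 244 (4.28-fold, the authors' adjusted p = 6.11e-05) and the clathrin light chain Clta rose from 48.5 to 109.7 (2.26-fold), while the Golgi adaptor Gga2 fell from 128 to 56.8 (2.25-fold) and Numb fell from 100.4 to 24.4 (4.11-fold). The heavy chain Cltc had 436 and 442 (the authors' adjusted p = 0.859). The uncoating genes Synj1 and Dnajc6 rose from 23.3 to 104 (4.45-fold) and from 1.31 to 11.3 (8.61-fold). Of caveolins and related genes 4 were higher and 4 lower, of 13 measured (median log2 ratio 0.11): Cav1 fell from 118 to 36.6 (3.23-fold), Cav2 fell from 87.3 to 12.6 (6.91-fold) and Ehd3, an endosomal recycling protein, rose from 28.2 to 115 (4.06-fold). Rab GTPases lay near the background in both directions, 10 higher and 11 lower of 48, with the secretory Rab27a from 164 to 31.8 (5.16-fold) and the recycling Rab11a from 32.3 to 57.9 (1.79-fold).

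Lysosomal genes rose more often than they fell. Of the vacuolar ATPase subunits, the proton pump of lysosomes and ruffled borders, 13 were higher and 2 lower, of 22 measured (median log2 ratio 0.74). Atp6v1e1 rose from 42.7 to 142 (3.33-fold, the authors' adjusted p = 0.000885), Atp6v1a rose from 201 to 547 (2.72-fold) and Atp6v1b2 rose from 124 to 331 (2.66-fold). Of the lysosomal membrane proteins 14 were higher and 1 lower, of 25 measured (median log2 ratio 0.46), and of the hydrolases 17 were higher and 8 lower, of 46 measured (median log2 ratio 0.29). Among hydrolases the proteases Lgmn and Ctsf rose from 34.8 to 182 (5.22-fold) and from 16.2 to 65.4 (4.04-fold), while the glycosidase Man2b1 fell from 267 to 83.6 (3.19-fold) and the sulfatase Galns fell from 63.4 to 21.9 (2.90-fold). Of the autophagy genes 16 were higher and 5 lower, of 33 measured (median log2 ratio 0.25), with the cargo receptor Sqstm1 from 52.4 to 122 (2.33-fold). Of 40 proteasome genes 22 were higher and 1 lower, by a median log2 ratio of 0.31. Markers of macrophages, which are rich in lysosomes, moved with these groups: 16 of 20 were higher and 0 lower, and their summed mean was 285 in secretory and 846 in maturation. Their part in the lysosomal result was not tested.

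The palindrome TCACGTGA, a core of the CLEAR element bound by the lysosomal regulators of the TFEB family, was in 0.657% of all windows and in 1.37% of measured genes with a window. Over all genes with a window it was in 1.55% of higher, 1.65% of lower and 1.18% of not passed genes. It was in 5 of 71 genes with a window in the 3 lysosomal groups, and all 5 of these were higher. A part of the motif in these rises was not tested. Of the genes without it 29 were higher, 8 lower and 29 not passed. The windows of these genes follow, with the motif in capitals. Lamp1 holds it in a pair of places, of which the one nearer the gene start is shown.
Ctsd, chr1:206968822-206968852, minus strand: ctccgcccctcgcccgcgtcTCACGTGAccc
Galc, chr6:123245560-123245600, minus strand: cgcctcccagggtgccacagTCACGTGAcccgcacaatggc
Lamp1, chr16:83075075-83075122, minus strand: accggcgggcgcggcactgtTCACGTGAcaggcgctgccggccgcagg
Cln3, chr1:190597941-190597988, minus strand: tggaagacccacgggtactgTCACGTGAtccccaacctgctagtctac
Atp6v0d1, chr19:50357274-50357321, minus strand: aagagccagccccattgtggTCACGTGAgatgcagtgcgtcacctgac
Lamp1, the main lysosomal membrane glycoprotein, rose from 129 to 249.9 (1.93-fold), Ctsd, cathepsin D, rose from 82.8 to 158 (1.91-fold), Galc, a galactosylceramidase, rose from 2.60 to 11.1 (4.28-fold), Cln3 rose from 3.53 to 5.59 (1.58-fold) and Atp6v0d1 rose from 83.3 to 121 (1.45-fold). The factors Tfeb and Mitf had 5.71 and 7.58 (the authors' adjusted p = 0.0544) and 10.7 and 7.47 (adjusted p = 0.0637), and Tfe3 rose from 8.54 to 11.4. The genes of this paragraph were named for the motif or as its known binders.

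Genes of energy metabolism rose more often than they fell, glycolysis genes by the largest median of these lists. Of the glycolysis genes 15 were higher and 1 lower, of 24 measured (median log2 ratio 1.27). Ldha, lactate dehydrogenase, rose from 46.2 to 189.8 (4.11-fold, the authors' adjusted p = 0.000130), the phosphofructokinase Pfkp rose from 6.99 to 30.8 (4.41-fold) and enolase Eno1 rose from 64.2 to 196 (3.06-fold), while hexokinase Hk1 fell from 36.6 to 24.1 (1.52-fold). Glucose carriers Slc2a12 and Slc2a8 rose from 9.12 to 101 (11.03-fold) and from 8.34 to 65.5 (7.86-fold). Of the citric acid cycle genes 18 were higher and 1 lower, of 29 measured (median log2 ratio 0.37), led by Idh3a, which rose from 35.2 to 109.9 (3.12-fold, the authors' adjusted p = 0.000824). Respiratory chain genes moved by smaller ratios: of complexes III and IV 12 were higher and 1 lower, of 28 measured (median log2 ratio 0.25), and of the ATP synthase subunits 9 were higher and 0 lower, of 16 measured (median log2 ratio 0.19). Complex I was less uniform, 12 higher and 5 lower of 36, with the accessory subunits Ndufa1, Ndufa3 and Ndufa4 among those that fell. Of the cholesterol and fatty acid genes 20 were higher and 3 lower, of 36 measured (median log2 ratio 0.62). Hsd17b7 rose from 6.22 to 35.6 (5.72-fold) and the malic enzyme Me1 rose from 48.9 to 144 (2.95-fold), while Scd2, a fatty acid desaturase, fell from 520.3 to 284 (1.83-fold). Slc13a5, the citrate carrier of enamel and bone, had 688 and 248 and did not pass (the authors' adjusted p = 0.168).

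Antioxidant and glutathione genes rose more often than they fell: 25 were higher and 7 lower, of 47 measured (median log2 ratio 0.61). Beside Ggt1, Nqo1, a quinone reductase, rose from 1.22 to 19.1 (15.7-fold, the authors' adjusted p = 2.28e-05) and thioredoxin Txn1 rose from 45.6 to 148 (3.24-fold). The regulator Nfe2l2 rose from 45.5 to 93.1 and the cystine carrier Slc7a11 from 23.2 to 74.4. The antioxidant response element TGACNNNGC was in 10.1% of all windows and in 13.1% of measured genes with a window. By direction it was in 14% of higher, 12.7% of lower and 12.9% of not passed genes. It was in 8 of 38 genes of this list with a window, of which 6 were higher, 0 lower and 2 not passed. Of those without it 13 were higher, 7 lower and 10 not passed. A part of the motif in these rises was not tested. The 2 windows that follow, picked from those of the 8 genes after their values were seen, belong to Gclm, the regulatory subunit of the glutathione-making ligase, and Txnrd1, which reduces thioredoxin.
Gclm, chr2:213031943-213031991, plus strand: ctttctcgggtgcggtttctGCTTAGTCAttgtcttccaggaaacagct
Txnrd1, chr7:22755954-22756002, minus strand: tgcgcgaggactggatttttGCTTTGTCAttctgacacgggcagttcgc
Gclm rose from 16.2 to 33.3 (2.06-fold) and Txnrd1 rose from 23.5 to 40.3 (1.72-fold). These genes, with Nfe2l2 and Slc7a11, were named for their role in this response.

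Cell-cell junction genes rose more often than they fell, and part of the basement membrane set fell. Of the desmosome genes 9 were higher and 1 lower, of 14 measured (median log2 ratio 0.94). Desmoplakin (Dsp) rose from 146 to 689 (4.72-fold, the authors' adjusted p = 0.000605), Pkp4 rose from 21.3 to 95.3 (4.47-fold) and Dsg3 rose from 2.003 to 18.3 (9.13-fold), whereas Dsg1 fell from 72.8 to 10.7 (6.79-fold). Of claudins and tight junction genes 16 were higher and 5 lower, of 31 measured (median log2 ratio 0.69). Cldn4 rose from 1.67 to 45.97 (27.5-fold), F11r (junctional adhesion molecule A) rose from 46.3 to 132 (2.85-fold) and Cldn1 rose from 298 to 593, while Cldn20 fell from 39.5 to 5.65 (6.99-fold). Among cadherins, catenins and nectins 10 were higher and 4 lower, of 23 measured (median log2 ratio 0.22): Nectin3 rose from 49.8 to 130.4 (2.62-fold) and Cdh3 rose from 51.5 to 95.2 (1.85-fold). Beside the fall of Ctnna2, the epithelial alpha-catenin Ctnna1 rose from 173 to 274, and beta-catenin (Ctnnb1) had 422 and 375 (the authors' adjusted p = 0.131, not passed). Of the gap junction genes Gja1 (connexin 43) rose from 1378 to 2174 (1.58-fold). Of laminin and hemidesmosome genes 3 were higher and 10 lower, of 22 measured (median log2 ratio -0.27). The laminin chain Lamb3 fell from 1444 to 283 (5.11-fold), and the basement membrane proteins Fras1 and Frem2 fell from 119.6 to 10.02 (11.9-fold) and from 27.6 to 3.87 (7.14-fold). Itga6 rose from 178 to 501 (2.81-fold) and Lama5 rose from 43.5 to 107 (2.47-fold). Ctnna1 is named as the partner of Ctnna2.

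The cytoskeleton lists held members that rose and members that fell. Of the keratins 7 were higher and 3 lower, of 21 measured (median log2 ratio 0.33): Krt14 rose from 542 to 1691 (3.12-fold), Krt8 rose from 7.53 to 16.6 (2.20-fold) and Krt80 fell from 20.9 to 7.64 (2.74-fold). Of the actin genes 27 were higher and 11 lower, of 76 measured (median log2 ratio 0.12). Cyfip2, of the WAVE complex, rose from 19.3 to 246 (12.7-fold, the authors' adjusted p = 0.00110) and Coro2a fell from 38.6 to 4.12 (9.37-fold), and vinculin (Vcl) fell from 146 to 83.7 (1.74-fold). Myh14, a non-muscle myosin heavy chain, rose from 17.1 to 113 (6.62-fold, the authors' adjusted p = 0.000153) and Ppp1r12b, a subunit of myosin phosphatase, fell from 66.9 to 15.96 (4.19-fold). Among tubulins Tubb3 fell from 38.9 to 3.19 (12.2-fold) and Tuba1c rose from 30.8 to 65.3 (2.12-fold). Microtubule-associated genes were more often lower, 9 higher and 15 lower of 39, with Clip2 from 143 to 25.3 (5.64-fold) and Dst (dystonin) from 1442 to 499 (2.89-fold).

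**Figure D4:**
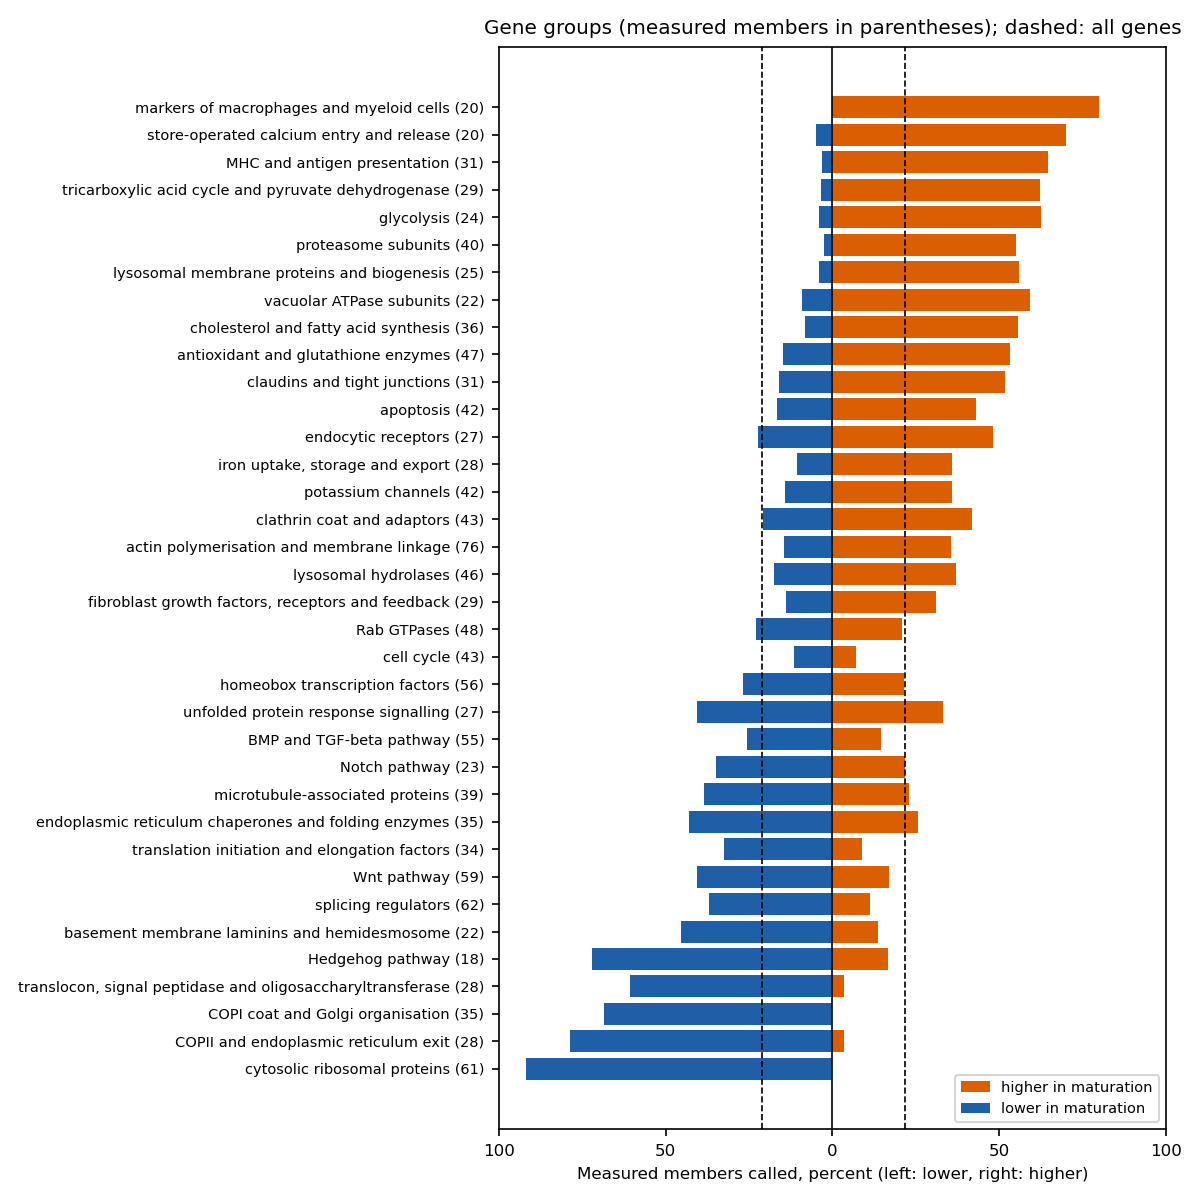
Percentage of measured members called higher (orange, to the right) and lower (blue, to the left) in maturation for 36 gene groups, ordered by the difference of the percentages. The dashed lines mark the share of all genes, 21.8% higher and 21.1% lower; cytosolic ribosomal proteins stand at the lower end and macrophage markers at the upper end.

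Hedgehog signalling genes fell from ligand to target: 3 were higher and 13 lower, of 18 measured (median log2 ratio -1.40). Shh, the ligand of dental epithelium, fell from 38.98 to 0.144 (271-fold, the authors' adjusted p = 0.000591). The receptors and inhibitors that are also targets followed: Ptch1 fell from 312 to 22.3 (13.996-fold, the authors' adjusted p = 0.000114) and Hhip fell from 14.9 to 0.195 (76.5-fold). The target and effector Gli1 fell from 90.6 to 2.27 (39.9-fold), Gli2 fell from 56.99 to 18.2 (3.14-fold) and the transducer Smo fell from 94.9 to 32.8 (2.89-fold). Gas1, Boc and Scube1 rose, Scube1 from 7.99 to 20.6. Among Wnt genes 10 were higher and 24 lower, of 59 measured (median log2 ratio -0.36). The ligands moved apart: Wnt3a fell from 36.8 to 0.149 (247-fold), while Wnt10b rose from 1.89 to 18.8 (9.97-fold) and Wnt7b rose from 7.73 to 19.01 (2.46-fold). The secreted inhibitors Sostdc1 and Sfrp2 fell from 21.6 to 2.25 (9.60-fold) and from 54.6 to 7.62 (7.17-fold) and Dkk2 rose from 20.4 to 76.05 (3.72-fold). The receptor Fzd6 fell from 171 to 67.4 (2.53-fold).

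Other signalling families had members that rose and members that fell. Of the BMP and TGF-beta genes 8 were higher and 14 lower, of 55 measured (median log2 ratio -0.11). Inhba, an activin subunit, rose from 5.78 to 83.7 (14.5-fold, the authors' adjusted p = 0.000489) and Inhbb rose from 6.11 to 27.4 (4.49-fold), while Bmp2 fell from 53.6 to 5.45 (9.84-fold, adjusted p = 0.000638). Id4, a target of BMP signals, rose from 13.1 to 137 (10.5-fold) and Smad9 fell from 9.19 to 2.27 (4.05-fold). In the EGF family 7 were higher and 3 lower, of 16 measured (median log2 ratio 0.43): the ligand Tgfa rose from 1.62 to 27.5 (16.9-fold), and the receptors Egfr and Erbb3 rose from 13.1 to 44.5 (3.38-fold) and from 5.11 to 15.3 (3.002-fold). Of fibroblast growth factor genes 9 were higher and 4 lower, of 29 measured (median log2 ratio 0.33), with the feedback genes Spry4, Spred1 and Dusp6 higher and Spry1 and Etv5 lower. Dusp6 rose from 12.96 to 35.05 (2.70-fold) and Spry1 fell from 20.1 to 7.51 (2.68-fold). Of the Notch genes 5 were higher and 8 lower, of 23 measured (median log2 ratio -0.31), with the ligand Jag2 from 108 to 54.9 (1.97-fold) and the modifier Mfng from 18.5 to 6.43 (2.87-fold). In the retinoic acid list 6 were higher and 6 lower, of 24 measured (median log2 ratio 0.00): Crabp1, a retinoic acid carrier, fell from 160.4 to 10.2 (15.8-fold, the authors' adjusted p = 0.000264) and Lrat, which stores retinol, rose from 10.7 to 25.04 (2.34-fold). Igfbp2, Igfbp3 and Igfbp4, binding proteins of insulin-like growth factors, rose, Igfbp3 from 164 to 354, while Igfbp5 fell from 1676 to 1010.5 (1.66-fold). Among nuclear receptors 10 were higher and 2 lower, of 27 measured (median log2 ratio 0.32), with Thrb, a thyroid hormone receptor, from 7.59 to 32.9 (4.34-fold) and Vdr, the vitamin D receptor, from 16.5 to 28.2 (1.71-fold).

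Homeobox genes and the Sox, Fox, Klf, Sp and Runx genes were higher about as often as all genes (21.4% and 23.0%, against 21.8%), and lower in 26.8% and 13.1%, against 21.1%. Of the homeobox genes 12 were higher and 15 lower, of 56 measured (median log2 ratio 0.00). Satb1, a chromatin organiser, fell from 272 to 26.4 (10.3-fold, the authors' adjusted p = 0.000269), and Irx3 rose from 4.81 to 30.01 (6.24-fold). Of the Sox, Fox, Klf, Sp and Runx genes 14 were higher and 8 lower, of 61 measured (median log2 ratio 0.04). Foxq1 rose from 3.81 to 29.3 (7.68-fold) and Klf5 rose from 11.2 to 49.3 (4.41-fold), while Sp6 fell as given above and Klf4 fell from 50.5 to 23.4 (2.15-fold). Of other epithelial factors Prdm1 rose from 6.37 to 17.4 (2.74-fold), Epas1 (HIF-2 alpha) rose from 87.6 to 225 (2.57-fold) and Hif1a rose from 134 to 283 (2.11-fold). Tp73 fell from 19.1 to 4.15 (4.61-fold) and Bcl11a fell from 36.98 to 12.7 (2.91-fold). Circadian genes lay near the background, 5 higher and 4 lower of 23 (21.7% and 17.4%, against 21.8% and 21.1% of all genes). Among them Bhlhe40 rose from 18.4 to 77.2 (4.20-fold) and Per3 fell from 35.2 to 18.1 (1.95-fold).

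Cell cycle genes differed little: 3 were higher and 5 lower, of 43 measured (median log2 ratio -0.05), fewer than the background in both directions. Of the genes for inhibitors of cyclin-dependent kinases and quiescence 4 were higher and 6 lower, of 16 measured (median log2 ratio -0.02). The inhibitors Cdkn2b rose from 4.21 to 57.1 (13.6-fold, the authors' adjusted p = 0.00204) and Cdkn1c rose from 11.8 to 26.2 (2.23-fold), the antiproliferative gene Btg1 fell from 351 to 92.6 (3.79-fold), and the inhibitor Cdkn1a had 154 and 189 (adjusted p = 0.586). Of the apoptosis genes 18 were higher and 7 lower, of 42 measured (median log2 ratio 0.22). The protective Bcl2l1 rose from 15.1 to 29.4 (1.95-fold) and the necroptosis gene Mlkl rose from 3.23 to 5.83 (1.81-fold).

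Immune genes rose more often than they fell, and many did not pass. Of genes for antigen presentation 20 were higher and 1 lower, of 31 measured (median log2 ratio 0.83), of interferon response genes 13 were higher and 1 lower, of 34 measured (median log2 ratio 0.49) and of complement and chemokine genes 17 were higher and 0 lower, of 38 measured (median log2 ratio 0.95). The class II genes RT1-Bb and RT1-Ba and their chaperone Cd74 rose from 9.73 to 41.6 (4.27-fold), from 16.5 to 68.3 (4.15-fold) and from 54.3 to 217 (3.99-fold). The interferon target Bst2 rose from 6.79 to 32.1 (4.73-fold) and the epithelial or endothelial chemokines Cx3cl1 and Cxcl14 rose from 3.06 to 25.4 (8.30-fold) and from 10.8 to 34.4 (3.17-fold). Macrophage markers rose beside them, Lyz2 from 65.3 to 299.9, Cd68 from 6.01 to 23.4 and Ptprc, the common leukocyte antigen, from 8.90 to 24.3; Csf1r had 41.2 and 76.05 (the authors' adjusted p = 0.0954, not passed). Their part in the immune result was not tested.

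Markers of several other tissues had signal in both stages, and some had means near 0. Of mesenchyme and fibroblast markers 7 were higher and 0 lower, of 19 measured (median log2 ratio 0.54), and the summed mean of that list was 12604 in secretory and 16891 in maturation. Col1a1, a collagen of bone, dentin and fibroblasts, had 5218 and 6385 (the authors' adjusted p = 0.223). Of endothelial markers 7 were higher and 0 lower, of 17 measured (median log2 ratio 0.43), with summed means of 373 and 526. Of markers of the neighbouring stratum intermedium and papillary layer 6 were higher and 3 lower, of 14 measured (median log2 ratio 0.44), and their summed mean was 3085 in secretory and 5658 in maturation. That list holds Alpl, Slc4a4, Gja1, Krt14 and Dsp, which other lists above hold too, and the part of these cells in those results was not tested. Of smooth muscle and pericyte markers 6 were higher and 4 lower, of 12 measured (median log2 ratio 0.58). Of nerve and Schwann cell markers 3 were higher and 3 lower, of 13 measured (median log2 ratio 0.31). Of lymphocyte markers 2 were higher and 0 lower, of 11 measured (median log2 ratio 0.08), and 9 of the 11 had both means below 1. No erythroid marker passed the authors' test after adjustment, of 8 measured, although 4 had an unadjusted p below 0.05. Osteoclast markers Ctsk and Acp5 had 264 and 457 (the authors' adjusted p = 0.256) and 155 and 265 (adjusted p = 0.306), and 2 of 12 in that list were higher. Odontoblast and bone markers gave 1 higher, 2 lower and 11 not passed, with the fall of Dspp given above. Skeletal muscle genes had the highest median log2 ratio of the 99 lists, 3.26, with 21 of 23 not passed. Myh4 had 1.96 and 52.8 (the authors' adjusted p = 0.491), Acta1 2.16 and 23.8 (adjusted p = 0.972) and Mb, myoglobin, 0.621 and 20.3 (adjusted p = 0.833). These and Ckm, Myl1 and Mylpf led the 19 genes whose means differed by at least 10-fold without passing.

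The transcript table showed how the make-up of a gene's transcripts differed. Of 9949 transcripts 783 (7.87%) were higher and 906 (9.11%) lower in maturation. A change in make-up passed for 73 of 4051 genes (1.80%), by the authors' p-value for it, adjusted here over genes. Of these, 54 had a summed mean of at least 10 in both stages. Among those 18 had a transcript whose share moved by at least 20 percentage points. Under the same limit on the summed mean, 17 genes that did not pass for make-up had such a share change too. In 20 of the 54 the transcript with the highest mean was a different one in each stage. That count was not made for the genes that did not pass. At the gene level 20 of the 73 were higher, 27 lower and 26 not passed, so a shift in make-up was seen without a passed change in level as well. A share here is a transcript's mean over the sum of the gene's transcript means, and the reads of 75 bases divide between transcripts by the authors' estimate.

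Cytoskeletal and linker genes were among the largest shifts. Fmn1, formin 1, an actin nucleator, had the largest shift: its transcript Fmn1-203 went from 9.13% to 71.8% of the gene's transcript mean (the authors' make-up adjusted p = 0.000444). In Tln2, talin 2, Tln2-201 went from 12.9% to 55.3%, and the gene's mean rose from 29.5 to 78.6 (2.67-fold). Krt17, whose gene mean did not pass (the authors' adjusted p = 0.129), changed in make-up: Krt17-202 went from 35.2% to 71.8% (the authors' make-up adjusted p = 0.000444). In Macf1, a linker of actin and microtubules, Macf1-202 went from 18.8% to 39.6% (the authors' make-up adjusted p = 9.52e-08). In Bicd2, a dynein adaptor, Bicd2-201 went from 41.7% to 70.9%, and in Sh3pxd2a, a podosome scaffold, Sh3pxd2a-201 went from 37.9% to 58.04%. Shares fell in Phldb1, where Phldb1-202 went from 57.9% to 33.9%, and in dystrophin (Dmd), where Dmd-201 went from 46.2% to 22.2%.

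Matrix, signalling and transport genes followed. Plod2, the lysyl hydroxylase of collagen telopeptides, fell at the gene level and changed its main transcript: Plod2-201 went from 80.9% to 34.8% (the authors' make-up adjusted p = 7.83e-07). In Amelx the transcript Amelx-205 went from 17.2% to 41.6% while the gene's mean fell 171-fold, so the maturation share rests on a lower mean. In Slc11a2, the endosomal iron carrier, Slc11a2-201 went from 64.5% to 87.4% (the authors' make-up adjusted p = 0.0424). In Psd3 Psd3-204 went from 32.03% to 75.5%, in Rin2, a Rab5 exchange factor, Rin2-202 went from 30.5% to 58.6%, and in Numb, an adaptor that is itself a known target of alternative splicing, Numb-201 went from 38.5% to 56.7%. In Tsc22d1 Tsc22d1-201 went from 66.5% to 93.3%, in Ptprb Ptprb-201 went from 63.2% to 84.3% and in Mtus1 Mtus1-203 went from 29.4% to 49.7%. In Npnt, nephronectin, Npnt-203 went from 60.8% to 40.7%. In Eci2, an enoyl-CoA isomerase, Eci2-202 went from 31.7% to 55.5% without a passed change in gene mean (the authors' adjusted p = 0.508). Among regulators of splicing 7 were higher and 23 lower, of 62 measured (median log2 ratio -0.23): Mbnl1 rose from 28.2 to 113 (4.01-fold) and Celf5 rose from 0.698 to 5.92 (8.48-fold), while the epithelial regulator Esrp2 fell from 19.4 to 10.04 (1.93-fold), Srsf6 fell from 102 to 55.99 (1.82-fold) and Srsf12 fell from 10.6 to 3.90 (2.71-fold). Their part in the transcript shifts was not tested.

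**Figure D5:**
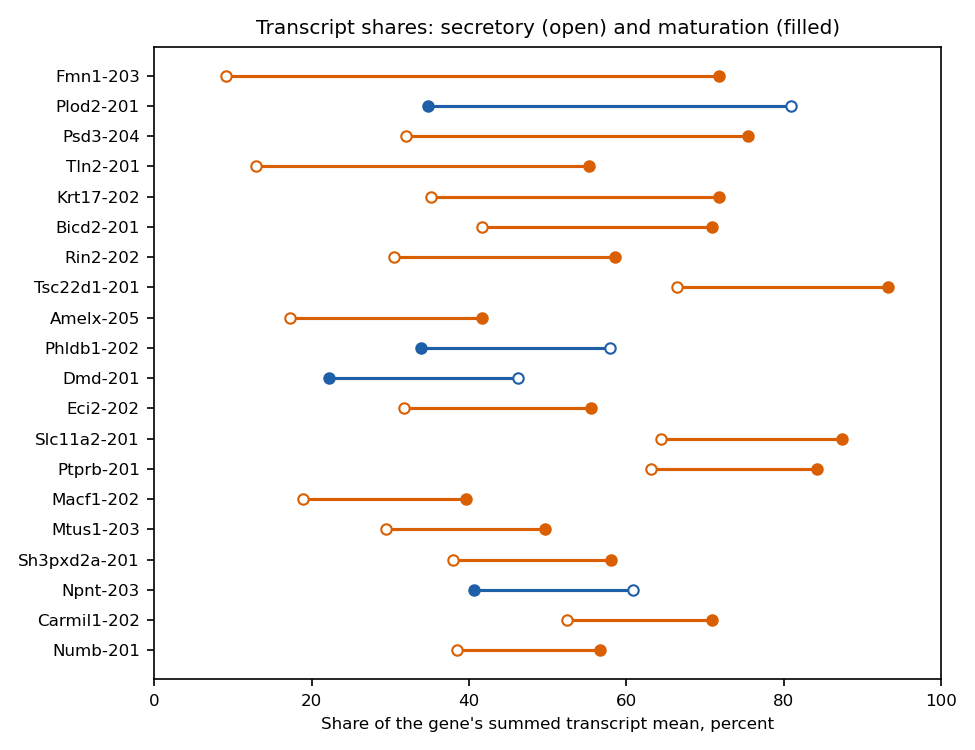
Share of 1 transcript in its gene's summed transcript mean, in percent, in secretory (open circle) and maturation (filled circle) ameloblasts for 20 genes called for a change in make-up with a summed mean of at least 10 in both stages. For each gene the transcript with the largest change is plotted; Fmn1 moves the farthest.

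Some genes with high means did not pass. The genes with the highest means in both stages among those with an adjusted p above 0.5 were AABR07015057.1 (17772 and 17995), Ahnak, a giant scaffold protein (1336 and 1373), the mitochondrial Mt-co3 (984 and 979), Calb1 and Cd44, the hyaluronan receptor (499 and 561). A p above the threshold does not show that their levels were equal. The genes nearest the threshold were Tmem205, with 8.48 and 5.54 (the authors' adjusted p = 0.0499), Tdp2 (0.0499), Slc11a1 (0.0499), Pdrg1 (0.0498) and Cbfa2t3 (0.0497) inside it, and Ryr1, with 1.05 and 5.55 (adjusted p = 0.05002), Ccdc126 (0.0501), AABR07005821.1 (0.0501), Mrm1 (0.0501) and Eif3m (0.0501) outside it. Of the called genes, 123 higher and 151 lower had a mean at or below 0.1 in the other stage and were given no fold.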

How the data were processed

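Gene expression was measured by RNA sequencing of dissected secretory and maturation ameloblasts of rat incisors. The submitters' processing notes name STAR 2.5.3a, Partek and the build rn6, without their roles; annotation, gene filter, normalization and model terms: not given in the sources used here. The authors deposited a table of least-squares means per gene and stage in a unit that is not stated, with a total signal, a p-value, a false discovery rate and a ratio for the contrast, and a like table per transcript with a p-value for isoform make-up. Per-library values are not used here, so depth and spread per library are unknown, and no counting interval is given. Per the labels' design text the cells came from 5 rats; the p-values measure the spread between libraries as the authors' model saw it, and whether that model paired the stages of a rat is not stated.

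From the deposited p-values, Benjamini-Hochberg adjusted p-values were computed over all genes, over all transcripts and, for make-up, over genes, with a threshold of 0.05; the gene values differed from the deposited false discovery rates by at most 4.92e-16, and those for make-up by at most 0.00347. Fold changes are ratios of the stage means, given where both exceed 0.1. Transcript means below 0 (69 secretory) were set to 0 for shares. The stage gene lists matched the table to within 0.497% for all but 11 genes. The adjustment and call steps were run on simulated data with shifts far larger than the noise. That checks the code and says nothing on how reliable the calls made here are. Python 3.11.15, numpy 2.4.6, pandas 2.3.3 and matplotlib 3.10.9 were used. Promoter windows came from RefSeq on GRCr8 by gene symbol (11020 measured genes matched), and any window of a symbol could hold the motif; coordinates are on GRCr8, not rn6.

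The comparison, the 99 gene lists (written from general knowledge) and the tests were chosen with earlier results of these data known, so a list's direction is not independent evidence. Named genes are the 5 markers, the 12 highest and 12 lowest ratios with a higher mean of at least 50, the 10 largest rises and falls of the mean, and per list the 3 largest rises and falls with a higher mean of at least 5, the member with the highest mean, and any member of lists of up to 20 genes. Also named are genes called for make-up, those nearest the threshold, genes of the highest means with an adjusted p above 0.5 and genes of 10-fold or more that did not pass. Genes named outside this rule, for a motif, a position or a role, are said to be so where they appear, and were chosen after values were seen. Some genes that the rule names are not reported here.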

Additional observations from a re-analysis of the deposited data

How the results depend on the processing

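No paired analysis was possible because the files hold 1 mean per stage and no per-library values; for the same reason no library could be left out in turn. At an adjusted p of 0.01, 2058 genes were higher and 2106 lower, 421 transcripts were higher and 526 lower, and 34 genes passed for make-up. With a Bonferroni threshold 102 genes were higher and 104 lower. With the test run only on genes whose higher mean was at least 10, 2251 were higher and 2392 lower. With a ratio of at least 1.5-fold 2353 were higher and 2115 lower, with at least 4-fold 407 and 354, and with 1 added to both means before the 2-fold threshold 900 were higher and 777 lower. A share change of at least 20 percentage points left 31 genes for make-up without a limit on the summed mean. With a summed mean of at least 10 in both stages as well, it left 18. The scales tried (the sum without the genes of the highest means, the 75th percentile and the median of all genes) move every log2 ratio by the same small amount, and the deposited p-values stay as they are, so these settings, and those for single named genes, could hardly change a direction and say little about stability. Of the 99 list medians 21 moved by at least 0.1 or changed sign when members with both means below 1 were left out, and 2 did so on the scale without the genes of the highest means. Depth per library is unknown, so the limit it sets was not tested.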
